A study of Mus musculus with 6 samples.

Results

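The 9 genes of the neuregulin and ErbB signalling system described here were followed in mouse heart ventricles between the first days after birth. They were taken by symbol from the deposited expression table of 39171 genes. The set of 9 holds 5 ligand genes (Nrg1, Nrg2, Nrg4, Hbegf and Btc) and 4 receptor genes (Egfr, Erbb2, Erbb3 and Erbb4), and each symbol matched a single gene identifier. The compared groups were wild-type ventricles from CD-1, an outbred mouse stock, at 2 days of age (P2, 3 libraries) and at 1 day of age (P1, 3 libraries). All hearts were unmanipulated. Poly(A) RNA was sequenced on an Illumina HiSeq instrument, and the values are FPKM, which are fragments per kilobase of transcript and per library size. The labels give 3 hearts per age but do not tie each library to a separate animal. The p-values therefore measure the spread between these libraries, which may be technical.

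ErbB proteins are receptor tyrosine kinases that signal as pairs. Ligands with an EGF-like domain are made as membrane proteins, are cut free by proteases, and bind EGFR, ERBB3 or ERBB4. ERBB2 has no known ligand of its own and acts as the favoured partner of the others, while ERBB3 has little kinase activity and depends on its partner. In the heart, NRG1 is released mainly by endocardial and capillary endothelial cells and acts on cardiomyocytes through ERBB4 and ERBB2, a pathway needed for trabeculation and studied in mouse for its part in cardiomyocyte division after birth. HBEGF and BTC bind EGFR and ERBB4, and NRG4 binds ERBB4.

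The receptor genes stood at clearly different levels, and Egfr, the lowest of them, showed the widest gap between ages. Egfr was 1.52 times as high in P2 by the ratio of mean FPKM, while Erbb2 and Erbb4 stood at 0.890 and 0.878 times their P1 means. Among the ligands Hbegf was the most abundant and was 1.12 times as high in P2. None of these differences passed the test over all genes. Differences were tested with limma on log2(FPKM + 1) over the 13624 genes whose mean reached 1 FPKM, with Benjamini-Hochberg adjustment. Of the 9 genes, 7 entered the test, while Nrg1 and Nrg2 lay below the filter. The test called 0 of these 7 at an adjusted p of 0.05, where it called 0.161% of all tested genes (0.0734% as higher and 0.0881% as lower in P2). At an unadjusted p under 0.05 there were 3 of 7 (Egfr and Hbegf higher, Erbb2 lower in P2), where the share of all tested genes was 18.6%. The same 3 genes had ages that did not overlap. Over all tested genes, 14.4% had each P2 value above each P1 value, and 10.6% had each P2 value below. The members' median log2 change was 0.02, against 0.01 for all tested genes.

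**Figure D1:**
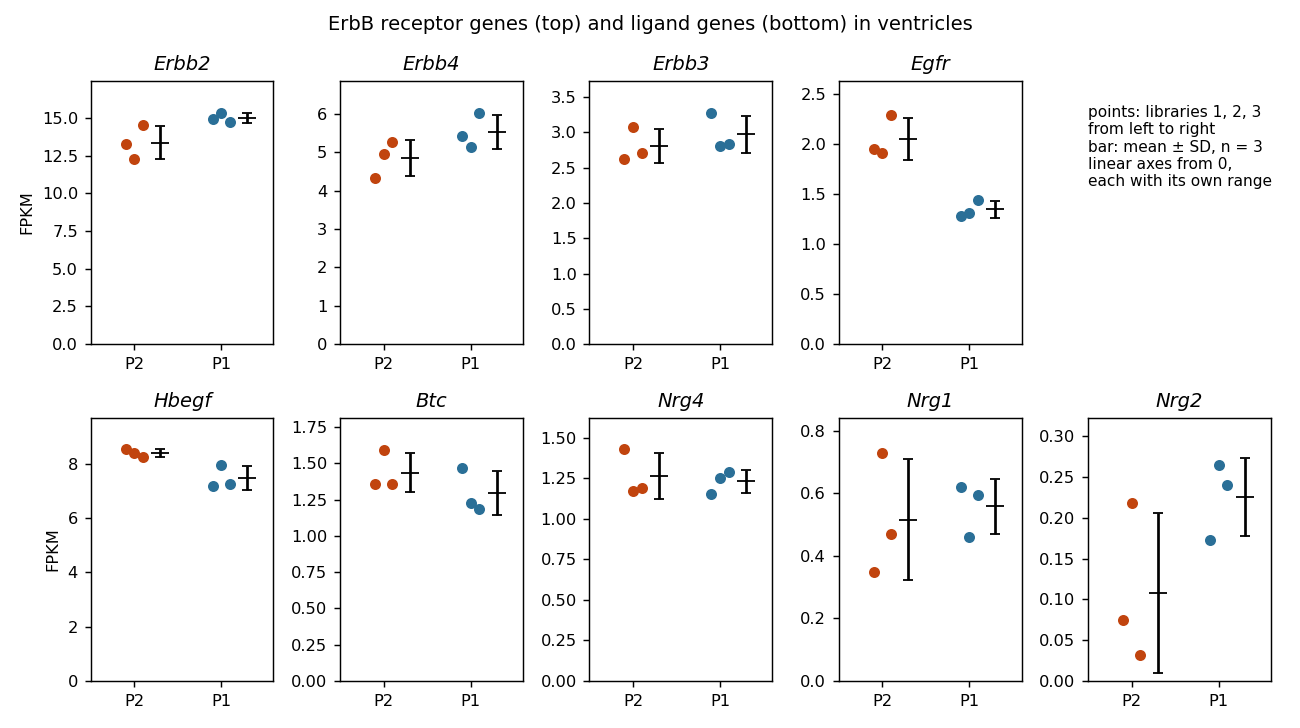
FPKM of the 4 receptor genes (top) and 5 ligand genes (bottom) in each library, P2 left and P1 right, on linear axes from 0 that differ between panels; the bars beside the points give mean ± SD (n = 3). The P2 points of Egfr and Hbegf all lie above the P1 points, those of Erbb2 all lie below, and the ages overlap for the other genes.

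Erbb2 (ENSMUSG00000062312), which encodes the ligandless partner receptor, was the most abundant receptor gene. Its position on GRCm38 (GENCODE M21) is chromosome 11 from 98412470 to 98437716. Its level was 13.3, 12.3 and 14.5 FPKM in P2 replicates 1 to 3, against 14.9, 15.3 and 14.8 FPKM in P1 replicates 1 to 3. Every P2 library was lower than every P1 library, although P2 replicate 3 came within a small distance of the lowest P1 value, and the P1 libraries lay closer together. The means were 13.4 ± 1.10 FPKM in P2 and 15.0 ± 0.311 FPKM in P1 (SD, n = 3 each). The log2 change on the log2(FPKM + 1) scale was -0.16 ± 0.06 (SE; limma, Benjamini-Hochberg adjusted p = 0.252), with a 95% interval from -0.31 to -0.01. Over the alternatives the adjusted p ranged from 0.0237 to 0.455. The lowest came with libraries rescaled to an equal FPKM sum, where Erbb2 passed with a log2 change of -0.32 and the median of all tested genes was -0.14. With that scaling 17.6% of all tested genes passed as lower and 0.286% as higher in P2. Without P2 replicate 2 the Erbb2 change was -0.11.

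Erbb4 (ENSMUSG00000062209), which encodes the receptor that binds neuregulins and pairs with ERBB2 in cardiomyocytes, was second in level. It spans 1075.9 kb of chromosome 1, from 68032186 to 69108059. The P2 libraries held 4.33, 4.95 and 5.26 FPKM, against 5.41, 5.15 and 6.01 FPKM in the P1 libraries. The ages overlapped only through P2 replicate 3, which lay above P1 replicate 2. Means were 4.85 ± 0.470 FPKM in P2 and 5.52 ± 0.441 FPKM in P1, with -0.16 ± 0.08 for the log2 difference (limma, Benjamini-Hochberg adjusted p = 0.356; 95% interval from -0.36 to 0.04). The change was close in size to that of Erbb2, but leaving out P2 replicate 1 brought it to -0.09 and leaving out P1 replicate 3 to -0.11. The adjusted p was 0.0509 with equal FPKM sums and up to 0.579 over the other alternatives.

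Erbb3 (ENSMUSG00000018166), which encodes the kinase-impaired neuregulin receptor, lies on chromosome 10 from 128567523 to 128589652. It was at 2.63, 3.07 and 2.70 FPKM in P2 libraries and at 3.28, 2.80 and 2.84 FPKM in P1 libraries. Values of both ages were interleaved. The log2 change was -0.06 with a 95% interval from -0.26 to 0.13 (limma, Benjamini-Hochberg adjusted p = 0.703), so neither direction was resolved. Outside muscle, ERBB3 is known as the neuregulin receptor of Schwann cells and their neural crest precursors. The defining glial factor Sox10 was between 0.0979 and 0.140 FPKM in P2 and between 0.105 and 0.236 FPKM in P1, close to 0 at both ages. The part of these cells in the Erbb3 level was not tested.

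Egfr (ENSMUSG00000020122), the receptor for EGF, HBEGF and BTC, had the lowest receptor level and the largest difference of the 7 tested members. It lies on chromosome 11 from 16752203 to 16918158. Its values were 1.95, 1.91 and 2.28 FPKM in P2, against 1.28, 1.31 and 1.44 FPKM in P1. The lowest P2 library lay well above the highest P1 library. Egfr averaged 2.05 ± 0.206 FPKM in P2 and 1.35 ± 0.0863 FPKM in P1 (SD, n = 3 each). The log2 change was 0.38 ± 0.09 (SE; limma, Benjamini-Hochberg adjusted p = 0.140), with a 95% interval from 0.17 to 0.58, and it ranked 429 by p among the tested genes. Because the added pseudocount is large beside a level near 1 FPKM, the change is understated, and it was 0.57 with a pseudocount of 0.1. Under every alternative that tested it the change stayed positive, from 0.27 to 0.57, and the adjusted p stayed between 0.0640 and 0.289.

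Egfr is expressed in mesenchymal and mural cells among others, and in bulk ventricle fewer cells of a type cannot be told apart from less RNA per cell. The summed level of 6 smooth muscle and pericyte markers was between 144 and 158 FPKM in P2 and between 126 and 139 FPKM in P1, without overlap. The pericyte gene Rgs5 carried that separation, at 93.7 ± 6.25 FPKM in P2 and 72.4 ± 4.89 FPKM in P1. The other 5 markers summed to between 55.0 and 56.9 FPKM in P2 and between 56.9 and 61.1 FPKM in P1. For 6 fibroblast markers the sum was between 771 and 834 FPKM in P2 and between 683 and 796 FPKM in P1, with overlap. Within that list the proteoglycan genes Dcn and Lum were higher in each P2 library. Their log2 changes were 0.35 and 0.30 (limma, Benjamini-Hochberg adjusted p = 0.119 and 0.130). Egfr changed by 0.38 on that scale and by 0.57 with a pseudocount of 0.1. The pseudocount shrinks the change of Egfr but hardly those of Dcn and Lum, so these sizes cannot be matched. In the same list Pdgfra and Tcf21 changed by 0.04 each, Col1a1 by -0.10 and Col1a2 by -0.02, all with overlapping ages. Rgs5, Dcn and Lum were singled out after their values were seen. The marker sums are as deposited and were not rescaled, while total FPKM was higher in every P2 library than in any P1 library. None of the markers in these lists was at 0. Their part in the Egfr difference was not tested.

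In order of level, Erbb2 exceeded Erbb4, Erbb4 exceeded Erbb3 and Erbb3 exceeded Egfr, each in 6 of 6 libraries. FPKM is scaled by transcript length, so these levels can be set side by side. No neighbours overlapped over the 6 libraries: the lowest Erbb2 value was 12.3 FPKM and the highest Erbb4 value 6.01 FPKM. The narrowest gap was between the lowest Erbb3 value (2.63 FPKM) and the highest Egfr value (2.28 FPKM, in P2). Erbb2 ranked 5559 by mean level among the 13624 tested genes, Erbb4 9653, Erbb3 11337 and Egfr 12575, so all but Erbb2 lay in the lower part of the expressed range.

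The mix of receptor transcripts within a library is unaltered by scaling each library with a single factor. Egfr made up 8.80%, 8.57% and 9.23% of the summed receptor FPKM in P2 replicates 1 to 3, against 5.16%, 5.31% and 5.77% in P1 replicates 1 to 3. The Egfr share was 8.87% ± 0.332 in P2 and 5.41% ± 0.314 in P1 (SD, n = 3 each). All P2 shares exceeded all P1 shares (two-sided exact permutation test, p = 0.10, the smallest that 3 against 3 allows; 0.4 adjusted over the 4 shares). Erbb2 held 57.9% ± 2.32 in P2 and 60.4% ± 1.79 in P1, and its ages overlapped (exact permutation p = 0.20). Erbb4 held 21.0% ± 1.38 in P2 and 22.2% ± 1.58 in P1 (exact permutation p = 0.50). For Erbb3 the shares were 12.2% ± 1.48 in P2 and 12.0% ± 1.05 in P1 (exact permutation p = 0.70). Erbb2 was thus the majority receptor transcript in all 6 libraries, and the Egfr share was the only one of the 4 whose ages were apart.

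**Figure D2:**
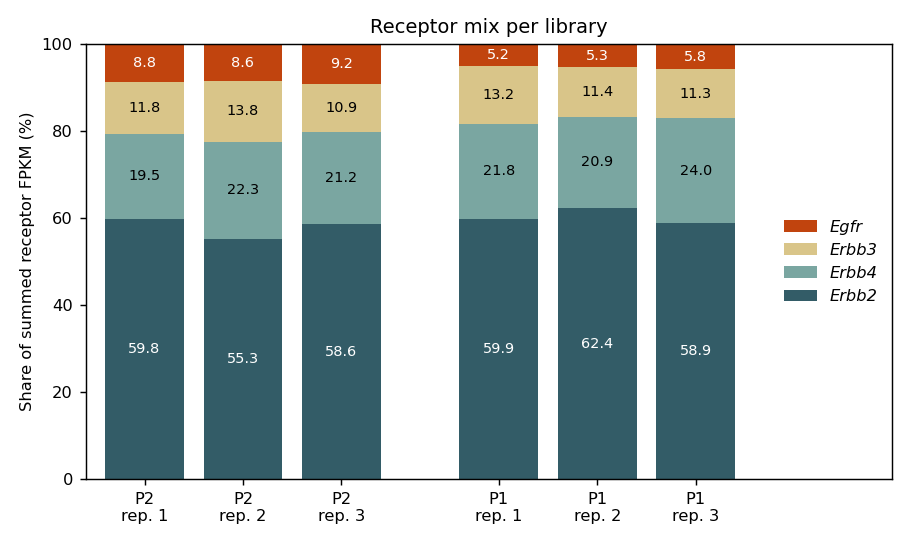
Share of each receptor gene in the summed FPKM of Egfr, Erbb2, Erbb3 and Erbb4, in percent, for each library, with the P2 libraries left and the P1 libraries right. The Egfr segment at the top is 8.57% to 9.23% in P2 and 5.16% to 5.77% in P1, while Erbb2 takes the largest segment in each library.

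Promoter windows are shown for Egfr and Erbb2, the receptors on chromosome 11 whose ages were apart in opposite directions. The RefSeq windows (GRCm38.p6, from 250 bases before to 50 bases after the gene start, plus strand, 5′ to 3′) are chr11:16751953-16752252 for Egfr and chr11:98412234-98412533 for Erbb2. Capitals mark matches on either strand to a GC box (GGGCGG, in Egfr), a CCAAT box (CCAAT, in Erbb2) or a TATA box (TATAAA, in neither).
Egfr: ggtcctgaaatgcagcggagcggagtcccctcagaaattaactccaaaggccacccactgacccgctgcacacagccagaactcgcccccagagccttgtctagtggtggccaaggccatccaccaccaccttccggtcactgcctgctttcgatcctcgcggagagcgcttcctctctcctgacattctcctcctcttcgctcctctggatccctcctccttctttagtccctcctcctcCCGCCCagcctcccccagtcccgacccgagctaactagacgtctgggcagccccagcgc
Erbb2: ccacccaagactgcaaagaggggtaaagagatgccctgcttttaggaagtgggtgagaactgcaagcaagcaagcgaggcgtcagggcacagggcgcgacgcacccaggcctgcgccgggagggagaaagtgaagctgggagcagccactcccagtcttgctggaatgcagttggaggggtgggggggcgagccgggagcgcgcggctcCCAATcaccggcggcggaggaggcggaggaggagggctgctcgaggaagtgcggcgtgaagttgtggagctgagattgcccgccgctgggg

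Both windows are rich in G and C, at 62.3% for Egfr and 66.0% for Erbb2, where the median of 27025 gene promoters of the same length was 52.7%. Egfr held 15 CpG dinucleotides and Erbb2 21, which is 0.591 and 0.699 of the number that their base composition would give, against a median of 0.389. Among all windows 35.9% held the GC box, 37.9% the CCAAT box and 14.2% the TATA box, with matches on either strand, so the single matches in these windows are common. The Erbb4 window had 55.3% G and C and none of the 3 motifs. Of the 9 genes, 5 had an entry (Egfr, Erbb2, Erbb4, Nrg4 and Btc). These letters describe the sequence and not its use in these hearts.

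Among the ligands, Hbegf (ENSMUSG00000024486), which encodes heparin-binding EGF-like growth factor, was the most abundant. It was at 8.55, 8.40 and 8.25 FPKM in P2, against 7.19, 7.98 and 7.28 FPKM in P1. All P2 values were higher than all P1 values, and the P2 libraries lay close together. Means were 8.40 ± 0.150 FPKM in P2 and 7.48 ± 0.433 FPKM in P1, so the log2 value was 0.15 ± 0.05 higher in P2 (SE; limma, Benjamini-Hochberg adjusted p = 0.209; 95% interval from 0.03 to 0.27). With equal FPKM sums, where the median of all tested genes was -0.14, the value of Hbegf was -0.0025, or 0.13 above that median. The gene lies on chromosome 18.

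Btc (betacellulin, ENSMUSG00000082361) and Nrg4 (ENSMUSG00000032311), a neuregulin studied mainly in adipose tissue, were close to 1 FPKM. Btc was at 1.36, 1.59 and 1.36 FPKM in P2 and at 1.47, 1.23 and 1.19 FPKM in P1. Its ages overlapped, with a log2 change of 0.09 and a 95% interval from -0.14 to 0.32 (limma, Benjamini-Hochberg adjusted p = 0.652). Nrg4 was at 1.43, 1.17 and 1.19 FPKM in P2 and at 1.15, 1.25 and 1.29 FPKM in P1. The Nrg4 values of both ages were interleaved, with a log2 change of 0.02 and a 95% interval from -0.20 to 0.24 (limma, Benjamini-Hochberg adjusted p = 0.931). With equal FPKM sums the changes were -0.01 for Btc and -0.08 for Nrg4. Exons of Nrg4 overlap the opposite-strand genes Fbxo22 (368 bases) and Gm15625 (177 bases), and the sources used here do not say whether fragments were assigned by strand, so part of its level may belong to them.

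Nrg1 (ENSMUSG00000062991), the neuregulin with the best known role in the heart, was low in whole ventricle. It lies on chromosome 8 from 31814551 to 32884029. The P2 libraries held 0.349, 0.728 and 0.470 FPKM, and the P1 libraries 0.621, 0.459 and 0.596 FPKM. P2 replicate 2 was the highest and P2 replicate 1 the lowest of all 6, so the ages overlapped throughout. Means were 0.516 ± 0.194 FPKM in P2 and 0.559 ± 0.0871 FPKM in P1 (two-sided exact permutation test, p = 0.80). The SD was 37.6% of the mean in P2 and 15.6% of the mean in P1. Its exons share 482 bases with an opposite-strand gene, Gm26578. The gene has 18 annotated transcripts, and a gene-level FPKM does not tell its isoforms apart.

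Nrg2 (ENSMUSG00000060275) was the lowest of the 9 genes. It was at 0.0744, 0.219 and 0.0313 FPKM in P2, against 0.172, 0.265 and 0.241 FPKM in P1. P2 replicates 1 and 3 held the lowest values, but P2 replicate 2 lay within the P1 range. The means were 0.108 ± 0.0981 FPKM in P2 and 0.226 ± 0.0479 FPKM in P1 (two-sided exact permutation test, p = 0.20). With 3 against 3 this test cannot go below 0.10, so a difference is neither shown nor dismissed. How many fragments such a low value rests on is unknown, because the table holds no counts.

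The endothelium is the known main source of NRG1 in the heart, and its markers moved a little with age on the deposited scale. The summed FPKM of 9 endothelial and endocardial markers was between 479 and 488 in P2 and between 426 and 475 in P1, without overlap. Of the 9, 7 had a positive log2 change, where 54.7% of all tested genes had. Ages were apart for 4 with P2 higher and 0 with P2 lower, where 14.4% and 10.6% of all tested genes were. Emcn, Npr3 and Cldn5 changed by -0.04, -0.05 and 0.001, with overlapping ages. All 9 markers were above 0. Total FPKM was also higher in P2 libraries (at least 807632) than in P1 libraries (at most 754510). The marker sums were not rescaled, so their separation depends on the deposited scale. As deposited, Nrg1 showed no such separation of the ages, while Hbegf did. The part of endothelial content in the ligand levels was not tested.

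By level, Hbegf exceeded Btc in 6 of 6 libraries, Nrg4 exceeded Nrg1 in 6 of 6 and Nrg1 exceeded Nrg2 in 6 of 6. Btc and Nrg4 did not differ in order, with Btc higher in 3 of 6. Hbegf made up 71.7% ± 2.02 of the summed ligand FPKM in P2 and 69.3% ± 1.86 in P1 (SD, n = 3 each; exact permutation p = 0.20). Nrg1 held 4.38% ± 1.54 in P2 and 5.20% ± 0.950 in P1 (exact permutation p = 0.70). Btc, Nrg4 and Nrg2 held 12.2%, 10.8% and 0.905% in P2 and 12.0%, 11.4% and 2.09% in P1, and the adjusted p over the 5 ligand shares was at least 0.5.

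The summed ligand level was 11.8, 12.1 and 11.3 FPKM in P2, against 10.6, 11.2 and 10.6 FPKM in P1. The summed receptor level was 22.2, 22.2 and 24.7 FPKM in P2, against 24.9, 24.6 and 25.0 FPKM in P1. The ratio of ligand to receptor transcripts was therefore 0.530, 0.545 and 0.456 in P2 and 0.426, 0.454 and 0.423 in P1. All P2 ratios were higher, but P2 replicate 3 barely exceeded P1 replicate 2. The log2 ratio was -0.97 ± 0.137 in P2 and -1.20 ± 0.0567 in P1, a difference of 0.23 (two-sided exact permutation test, p = 0.10, the smallest this design allows). The ratio is mainly that of Hbegf to Erbb2, the most abundant gene on each side.

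**Figure D3:**
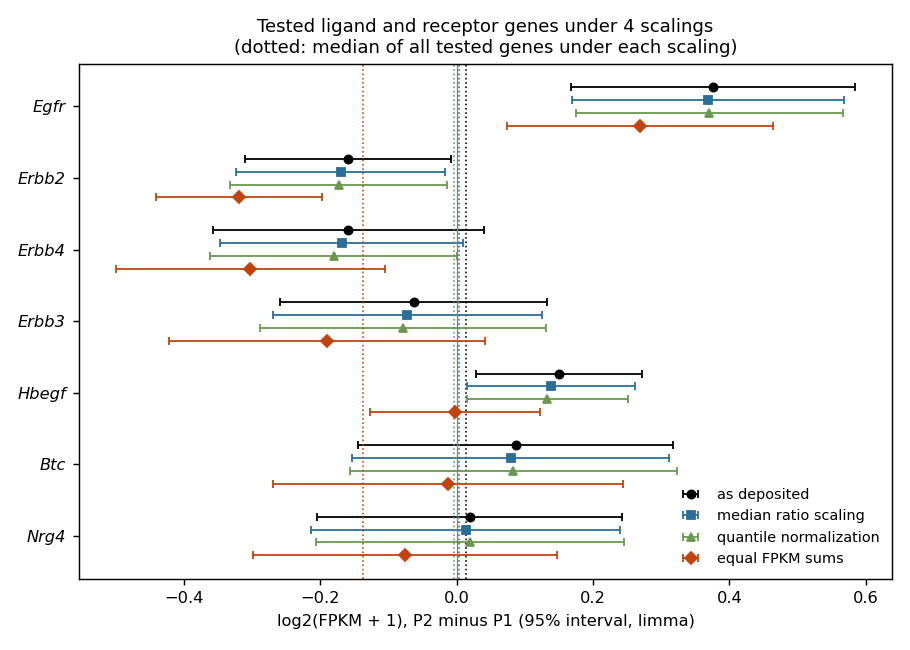
Change of the 7 tested genes on the log2(FPKM + 1) scale, P2 minus P1, with 95% intervals from limma, for values as deposited and after 3 other scalings; dotted lines mark the median of all tested genes under each. Egfr lies right of 0 and Erbb2, Erbb4 and Erbb3 lie left of 0 under each scaling, while Hbegf, Btc and Nrg4 cross 0 with equal FPKM sums, where the median of all genes is -0.14.

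The remaining ligands of the family were followed from a list of 6. Only Egf and Tgfa, both ligands of EGFR, reached a mean of 1 FPKM. Egf was at 1.85, 1.74 and 1.88 FPKM in P2 and at 1.75, 1.35 and 1.21 FPKM in P1, and the ages overlapped slightly (log2 change 0.22 ± 0.10; limma, Benjamini-Hochberg adjusted p = 0.328). Tgfa was at 1.77, 1.94 and 1.78 FPKM in P2 and at 1.85, 2.29 and 1.90 FPKM in P1, with overlapping ages and a log2 change of -0.09. Epgn, Ereg and Areg were at most 0.216 FPKM in each library, and Nrg3 was listed at 0 in all but P2 replicate 2.

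Genes that release ligands or act downstream were taken from 7 lists with 96 members, this family list included, of which 91 were tested. The test called 0 of 91, and 7 were higher and 10 lower in P2 at an unadjusted p under 0.05, where 10.7% and 7.89% of all tested genes were. Ages were apart for 12 with P2 higher and 10 with P2 lower, where the shares of all tested genes were 14.4% and 10.6%. The median log2 change of the 91 genes was 0.01, as it was over all tested genes. With equal FPKM sums 18 of the 91 passed, all 18 of them lower, where 17.6% of all tested genes passed as lower.

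The proteases and regulators that free the ligands showed no shared direction. Of 10 tested genes, 1 was higher and 2 were lower in P2 at an unadjusted p under 0.05, where 10.7% and 7.89% of all tested genes were. Furin, a convertase that matures many precursor proteins, was at 27.6 ± 0.217 FPKM in P2 and 31.8 ± 1.93 FPKM in P1 (log2 change -0.20; limma, Benjamini-Hochberg adjusted p = 0.154). Timp3, an inhibitor of the sheddase ADAM17, was at 25.5 ± 1.15 FPKM in P2 and 30.1 ± 3.84 FPKM in P1 (-0.22). Adam9, a membrane protease, was at 27.5 ± 0.860 FPKM in P2 and 24.6 ± 1.71 FPKM in P1 (0.15, and -0.01 with equal FPKM sums).

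Among 17 tested inhibitors and turnover factors of the receptors, 13 had a positive log2 change, and the list median was 0.07; over all tested genes 54.7% were positive. With equal FPKM sums 4 of the 17 were positive, where 15.6% of all tested genes were. Ages were apart for 7 with P2 higher and 1 with P2 lower, where 14.4% and 10.6% of all tested genes were. At an unadjusted p under 0.05, 4 were higher and 1 was lower, where 10.7% and 7.89% of all tested genes were. This count of 5 was 2 without P1 replicate 1 or P2 replicate 1, and 3 without P1 replicate 2, P2 replicate 2 or P2 replicate 3. Socs4, a suppressor of cytokine signalling that acts on EGFR, was at 9.99 ± 0.146 FPKM in P2 and 8.13 ± 0.674 FPKM in P1 (log2 change 0.27 ± 0.06; limma, Benjamini-Hochberg adjusted p = 0.140). Errfi1 (MIG6), a feedback inhibitor that binds the kinase domains of EGFR and ERBB2, was at 7.78 ± 0.327 FPKM in P2 and 6.56 ± 0.555 FPKM in P1 (0.22 ± 0.07; adjusted p = 0.185). Rnf41 (NRDP1), the ubiquitin ligase of ERBB3 and of ERBB4, was at 8.12 ± 0.165 FPKM in P2 and 7.20 ± 0.327 FPKM in P1 (0.15). Cblb, a ubiquitin ligase of EGFR, was at 5.53 ± 0.329 FPKM in P2 and 6.44 ± 0.332 FPKM in P1 (-0.19). With equal FPKM sums the positive changes were 0.12 for Socs4, 0.07 for Errfi1 and near 0 for Rnf41.

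The signalling arms were close to the level of all genes. Of all tested genes 10.7% were higher and 7.89% lower in P2 at an unadjusted p under 0.05. In the adaptor and PI3K-AKT list 0 of 22 tested genes were higher and 2 lower at that p, with a median log2 change of 0.01. These were the kinase Akt1 (142 ± 2.54 FPKM in P2 and 153 ± 1.64 FPKM in P1, log2 change -0.10) and the regulatory subunit Pik3r2 (16.6 ± 0.555 FPKM in P2 and 18.7 ± 1.19 FPKM in P1, -0.16). In the RAS-ERK list 1 of 14 was higher, the kinase Rps6ka3 (33.1 ± 1.47 FPKM in P2 and 29.2 ± 1.44 FPKM in P1, log2 change 0.17). The scaffold Ksr1 was lower in that list (5.18 ± 0.121 FPKM in P2 and 5.69 ± 0.147 FPKM in P1, -0.11).

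Of 18 feedback and immediate response genes of the ERK pathway, 3 were lower and 0 higher in P2 at an unadjusted p under 0.05, where 7.89% and 10.7% of all tested genes were. Over all tested genes, ages were apart for 10.6% with P2 lower and for 14.4% with P2 higher. In this list they were apart for the same 3 and, with P2 higher, for 2 feedback inhibitors that did not reach that p. These were Dusp5 (4.53 ± 0.389 FPKM in P2 and 3.93 ± 0.205 FPKM in P1) and Spry1 (14.8 ± 0.538 FPKM in P2 and 13.9 ± 0.450 FPKM in P1, with a change of -0.07 at equal FPKM sums). Myc, a growth-promoting transcription factor, was at 4.39, 5.10 and 5.44 FPKM in P2 and at 6.78, 7.41 and 6.67 FPKM in P1. Its P2 values all lay below its P1 values, and the log2 change of -0.41 ± 0.08 was the largest in the pathway lists (limma, Benjamini-Hochberg adjusted p = 0.119). Etv4, an ETS factor induced by ERK, was at 3.95 ± 0.391 FPKM in P2 and 5.23 ± 0.607 FPKM in P1 (-0.33), and the immediate early gene Egr1 at 5.45 ± 0.556 FPKM in P2 and 6.48 ± 0.384 FPKM in P1 (-0.22). The list median was -0.03. These genes respond to many receptors besides the ErbB family.

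Among 8 genes that act with the cleaved ERBB4 fragment in the nucleus or release it, Wwox, which holds that fragment in the cytoplasm, was lower in each P2 library (4.17 ± 0.282 FPKM in P2 and 5.16 ± 0.0338 FPKM in P1; log2 change -0.25, limma, Benjamini-Hochberg adjusted p = 0.135). The corepressor Ncor1 was at 51.1 ± 0.968 FPKM in P2 and 47.4 ± 1.15 FPKM in P1 (0.11, and -0.06 with equal FPKM sums). Both had an unadjusted p under 0.05, in opposite directions, where the share of all tested genes was 18.6%. Of the 8 genes 7 had a negative change, where 54.7% of all tested genes had a positive one.

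**Figure D4:**
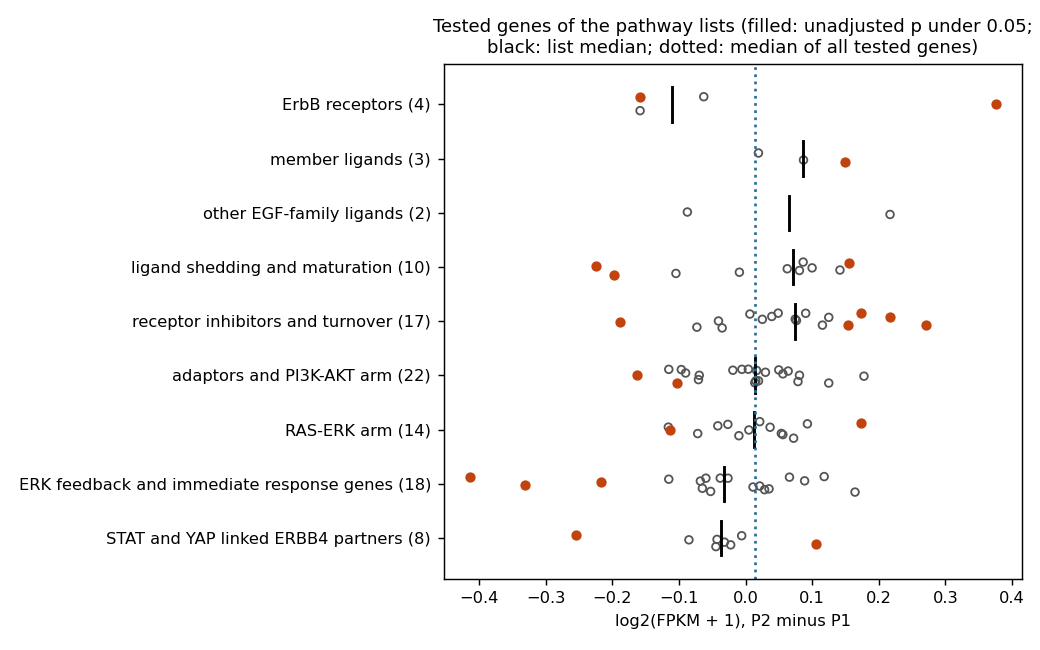
Change of each tested gene of the member sets and the 7 pathway lists on the log2(FPKM + 1) scale, P2 minus P1, with the number tested in brackets; filled points have an unadjusted limma p under 0.05, black bars are list medians and the dotted line is the median of all tested genes. Egfr is the rightmost point at 0.38 and Myc the leftmost at -0.41, and no point passed the adjusted threshold.

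For each tested member the protein-coding gene with the most similar course was sought among 11752 tested genes outside the lists. Likeness was the root mean square difference of log2(FPKM + 1) deviations over the 6 libraries. Klf2, a flow-responsive endothelial transcription factor, was nearest to Egfr, with a difference of 0.04 log2 units, at means of 19.4 FPKM in P2 and 14.7 FPKM in P1. Zfyve1 was nearest to Erbb2 (0.02), Emb to Erbb4 (0.03) and Map3k1 to Erbb3 (0.01). Among the ligands, Sema6d was nearest to Hbegf (0.01), Mllt11 to Btc (0.02) and Dgka to Nrg4 (0.01). With 6 libraries and so many candidates a close match is bound to exist, and nothing further is drawn from these names.

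The ventricular label was checked against markers of the cell and chamber types it can hold. Cardiomyocyte markers summed to between 7070 and 7290 FPKM in P2 and between 6820 and 7010 FPKM in P1, and all 8 were above 0. Atrial markers summed to between 547 and 777 FPKM in P2 and between 953 and 1500 FPKM in P1, epicardial markers to between 35.1 and 43.0 FPKM in P2 and between 44.6 and 49.3 FPKM in P1, and erythroid markers to between 754 and 952 FPKM in P2 and between 961 and 1360 FPKM in P1. The atrial, epicardial and erythroid sums were lower in every P2 library, but not through all their members. Ages were apart with P2 lower for 2 of 6 tested atrial, 4 of 6 epicardial and 3 of 5 erythroid markers, and with P2 higher for 0 in each list. Over all tested genes, 10.6% were apart with P2 lower and 14.4% with P2 higher. The cardiomyocyte sum went the other way and was higher in every P2 library. These sums are as deposited and were not rescaled for the higher total FPKM of the P2 libraries. The atrial growth factor gene Bmp10 was the only called gene in any list, at 1.28 ± 0.120 FPKM in P2 and 3.32 ± 0.284 FPKM in P1 (log2 change -0.92; limma, Benjamini-Hochberg adjusted p = 0.0306). Leukocyte markers ran from 27.5 to 31.2 FPKM in P2 and from 30.1 to 44.2 FPKM in P1. The part of these tissues in the receptor and ligand levels was not tested. Total FPKM was between 807632 and 858436 in P2 libraries and between 716968 and 754510 in P1 libraries, and between 13355 and 13429 genes reached 1 FPKM in each library.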

How the data were processed

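Per the file name and values, the authors deposited FPKM for 6 libraries and 39171 Ensembl genes. Per the submitters' processing notes, the tools included TopHat2, Cuffdiff 2.2.1 and R 3.2. Genome build, annotation, strand setting and between-library scaling were not given in the sources used here. The table holds no counts, so depth is unknown. Values were used as deposited. Symbols came from GENCODE M21, which matched 37605 identifiers. Myh6, Actc1 and Myl2 were listed at 0 in all libraries, so an exact 0 may be a failed estimate.

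The test was limma 3.58.1 (R 4.3.3) on log2(FPKM + 1), with age as the only factor, a variance trend and Benjamini-Hochberg adjustment over 13624 genes whose mean reached 1 FPKM, two-sided, at 0.05. Shares and ratios used exact permutation tests. On simulated data for P2 against P1 with 13624 genes, 64% of genes changed by 0.5 and 96% of those changed by 1 on the log2 scale were recovered, with 7 false calls among 168. Changes were planted only in genes above a set mean level. Egfr, Erbb3, Btc and Nrg4 lay below that level, so this recovery does not apply to them. Erbb2, Erbb4 and Hbegf lay above it but changed by only -0.16, -0.16 and 0.15. No change that small was planted, so recovery at those sizes is unknown. Alternatives were another pseudocount, other filters, 3 scalings, no trend, quality weights, a replicate block and each library left out. The fit without genes listed at 0 in any library was added after the data were seen.

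The 9 members and the lists were chosen with earlier results of these data known. All members are named. In the pathway lists, called genes were to be named, then up to 4 per list by smallest unadjusted p under 0.05, or the gene with the smallest p. Promoter windows are those of RefSeq, the first per gene. Tables used Python 3.11.15, pandas 2.3.3, numpy 2.4.6 and scipy 1.17.1, and plots matplotlib 3.10.9. The summed level of the Schwann and glial marker list is not reported here.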

Additional observations from a re-analysis of the deposited data

How the results depend on the processing

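The count of called genes over the whole table, 22 as reported, was 40 with a pseudocount of 0.1, 41 with a filter of 5 FPKM, 14 without a variance trend, 2433 with equal FPKM sums and 111 without genes listed at 0 in any library. Leaving out single libraries gave 5 to 19. Called members stayed at 0 under all alternatives except equal FPKM sums, where 1 (Erbb2) passed, as did 18 pathway genes, none of which passed under another alternative. That scaling also turned the changes of Hbegf (-0.0025), Btc (-0.012) and Nrg4 (-0.0755), where the median of all genes was -0.14 in place of 0.01. Without single libraries the change of Nrg4 ran from -0.0325 to 0.048, the difference in Erbb3 share from -0.578 to 0.872 percentage points and that in Btc share from -0.296 to 1.14. The other log2 changes, shares and the ligand to receptor ratio kept their direction without any single library, but several moved by over 1.5 times. The Erbb4 change ran from -0.21 to -0.09, that of Erbb2 from -0.22 to -0.11, that of Btc from 0.04 to 0.14 and that of Erbb3 from -0.11 to -0.0084. The share difference of Erbb2 ran from -3.43 to -1.19 points, of Erbb4 from -1.86 to -0.323, of Nrg1 from -1.63 to -0.111 and of Nrg4 from -1.31 to -0.0765. Pathway counts at an unadjusted p under 0.05 ran from 1 to 5 for the PI3K-AKT list and from 1 to 3 for shedding. The replicate numbers did not pair the libraries: deviations from the age means correlated at -0.011, 0.101 and 0.009 across genes for the 3 same-numbered pairs, and not every library was closest to its own number. With the replicate block 5 genes and 0 members were called, and the Egfr share difference of 3.45 points had an exact sign-flip p of 0.25, the smallest that 3 pairs allow. The depth behind the low values, such as those of Nrg1 and Nrg2, is unknown.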
